A study of Mus musculus with 2 samples.

Results

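Nuclei of the mouse subventricular zone (SVZ), the germinal layer beside the lateral ventricle, that carried transcripts of the prolactin receptor gene Prlr or of the glycine receptor gene Glra3 together with other genes of the same neurons were described here. Among nuclei with at least 500 genes and at most 5% mitochondrial unique molecular identifiers (UMIs, counts of single captured RNA molecules), 1663 of 28964, or 5.74%, were taken. Each had at least 4 of 8 genes detected (B230217J21Rik, Zfp804b, Prlr, Rmst, Baiap3, Glra3, Trpc4 and Cntnap5a), Prlr or Glra3 among them, and at most 2 UMIs of Rarb, 1 of Slc17a7 and 1 of Tshz1. They are called Prlr/Glra3 neurons below. The nuclei were thus chosen by measured counts of these 11 genes, whose levels are given as a description only.

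The series concerns injury of the SVZ after intestinal disease in preterm infants, studied here in mice. It compared mice with MIP (modeled intestinal perforation), assigned on postnatal day 5 and dissected 48 h later, at postnatal day 7, with healthy control mice of the same age. Both groups came from standard breeding and their tissue was snap frozen before nuclei were isolated. Strain, sex, time of day and the number of animals behind each library are not stated in the labels. Each group was 1 library, so no difference below could be checked over replicates and no test was made. The intervals given are exact 95% intervals of counts and cover counting error only.

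The MIP library held 12366 barcodes with 100823376 UMIs, and the control library held 16964 barcodes with 146730970 UMIs. The filters kept 12114 MIP and 16850 control nuclei. In the Prlr/Glra3 neurons, 4 Y-linked genes together had 4652 UMIs in the MIP library and 7 UMIs in the control library, so the libraries differ in sex as well as in treatment. The 2 differences cannot be told apart in any ratio of MIP to control. The libraries shared 115 barcodes; 5 MIP and 8 control Prlr/Glra3 neurons had such a barcode, and 0 had one that met the rule in both libraries.

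Prlr encodes a cytokine receptor without kinase activity of its own. It signals through the kinase Jak2 and the transcription factor Stat5, and in the brain it is best known from hypothalamic and preoptic neurons that serve maternal behaviour. Glra3 encodes a ligand-binding subunit of the glycine-gated chloride channel. Trpc4 encodes a cation channel opened downstream of Gq-coupled receptors and is known for strong expression in the lateral septum, the nucleus that borders the dorsal part of the lateral ventricle. Baiap3 takes part in dense-core vesicle release, Cntnap5a encodes a contactin-associated cell adhesion protein, and Rmst is a long noncoding RNA of neural cells. Slc17a7, Rarb and Tshz1, which the rule limits, mark cortical excitatory neurons, striatal projection neurons and a group of striatal and intercalated-type neurons.

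The Prlr/Glra3 neurons made up a larger share of the MIP library than of the control library. This depended on how many of the 8 genes were asked for and on the depth of the nuclei counted. They numbered 789 of 12114 MIP nuclei, or 6.51% (interval 6.08% to 6.97%), and 874 of 16850 control nuclei, or 5.19% (interval 4.86% to 5.53%). The log2 ratio of the shares was 0.33 (interval 0.19 to 0.47). It became 0.05 when 5 genes were asked for and -0.26 when 6 were asked for, with 254 MIP and 422 control nuclei left. Leaving out every nucleus with 3 or more UMIs of nonneuronal marker genes raised the log2 ratio of the share to 1.12, with 271 MIP and 147 control neurons left. That cutoff was not matched for depth. With only nuclei of at least 2000 UMIs counted, the log2 ratio of the shares was 0.12, below its interval. Left out there were 1220 MIP and 3718 control nuclei outside the rule, but only 0 MIP and 2 control Prlr/Glra3 neurons. Among the chosen nuclei, exactly 4 of the 8 genes were detected in 285 MIP nuclei, or 36.1%, and in 196 control nuclei, or 22.4%. Just outside the rule, 292 MIP and 134 control nuclei had 3 of the genes and met every other limit. Nuclei with exactly 4 had a median depth of 10970 UMIs in MIP and 12848 UMIs in control, and those with 3 had 9922 UMIs in MIP and 11092.5 UMIs in control. A further 591 MIP and 795 control nuclei had at least 4 of the genes and were left out by the limits on Rarb, Slc17a7 and Tshz1 alone, with median depths of 17154 and 20132 UMIs.

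Depth differed between the libraries within these neurons. The median was 11584 UMIs and 4003 genes per MIP nucleus, and 14199 UMIs and 4745 genes per control nucleus. Over 30000 UMIs were found in 12 MIP nuclei, or 1.52%, and in 44 control nuclei, or 5.03%. No doublet caller was run, and the part of doublets in the deep nuclei was not tested. The summed counts behind the levels below are 10394920 UMIs in MIP and 13896687 UMIs in control, and levels are given as CPM, counts per 1000000 of these sums.

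Prlr and Glra3 moved in opposite directions between the libraries. Prlr (ENSMUSG00000005268, mm10 chr15:10177238-10349180, plus strand, protein coding) had 692 UMIs, or 66.6 CPM, in MIP nuclei and 1383 UMIs, or 99.5 CPM, in control nuclei, a log2 ratio of -0.58 (interval -0.71 to -0.45). Glra3 (ENSMUSG00000038257, chr8:55940460-56130070, plus strand, protein coding) had 2132 UMIs, or 205 CPM, in MIP nuclei and 1981 UMIs, or 143 CPM, in control nuclei, a log2 ratio of 0.52 (interval 0.44 to 0.61). Since every one of these nuclei was chosen for holding Prlr or Glra3, the pair is constrained by the rule. In all other kept nuclei the log2 ratio was -0.11 for Prlr and 0.77 for Glra3. The same rule shaped that group by taking the Prlr/Glra3 neurons out, so it is not free of the constraint.

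The split of the nuclei by these receptors followed the same levels. Only Prlr was detected in 132 MIP nuclei, or 16.7%, and in 244 control nuclei, or 27.9%. Only Glra3 was detected in 453 MIP nuclei, or 57.4%, and in 382 control nuclei, or 43.7%. Both were detected in 204 MIP nuclei, or 25.9%, and in 248 control nuclei, or 28.4%. With each nucleus thinned to 2000 UMIs, a UMI of Prlr remained in 11.8% of MIP and 18.2% of control Prlr/Glra3 neurons. In microglia, which should lack it, the thinned share was 0.253% in MIP and 0.983% in control. Glra3 remained in 33.6% of MIP and 21.7% of control Prlr/Glra3 neurons, against 1.01% of MIP and 0.737% of control microglia. Thinning left out 0 MIP and 2 control neurons. Before thinning, a UMI of Prlr was in 42.6% of MIP and 56.3% of control Prlr/Glra3 neurons and in 1.51% of MIP and 2.57% of control microglia, whose median depths were 3030 and 3526.5 UMIs.

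**Figure D1:**
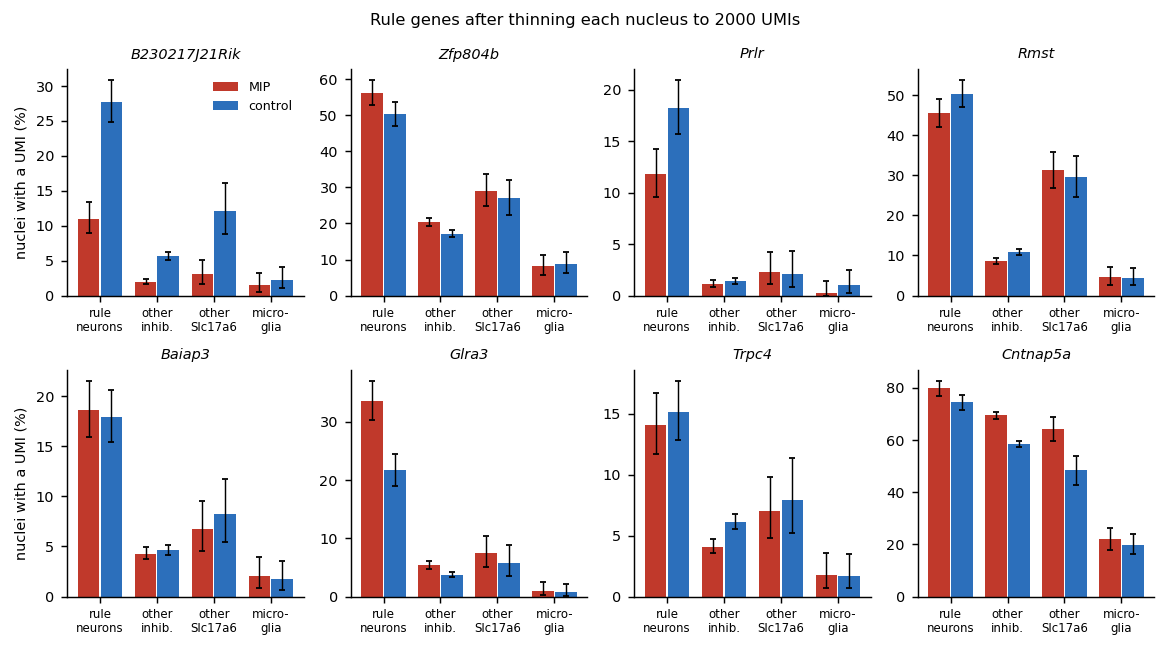
Percent of nuclei with a UMI of each of the 8 genes that chose them, after thinning each nucleus to 2000 UMIs, in Prlr/Glra3 neurons (rule neurons), other inhibitory neurons, other Slc17a6 neurons and microglia of the MIP and the control library, with exact 95% intervals that cover counting error only and a separate linear scale for each gene. B230217J21Rik is found in 11.03% of MIP and 27.8% of control Prlr/Glra3 neurons, and Prlr in 11.8% and 18.2%, against 1.15% and 1.38% of the other inhibitory neurons.

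The largest difference among the 8 genes was in B230217J21Rik, a gene of no stated function in the files. It had 558 UMIs, or 53.7 CPM, in MIP nuclei and 2433 UMIs, or 175 CPM, in control nuclei, a log2 ratio of -1.71 (interval -1.84 to -1.57). The other kept nuclei showed nearly the same, with 11.99 CPM in MIP and 37.9 CPM in control, a log2 ratio of -1.66. The gene is therefore low across the MIP library and not in these neurons alone. The other 5 genes moved little: log2 ratios were 0.15 for Zfp804b, 0.07 for Cntnap5a, -0.13 for Trpc4, -0.15 for Baiap3 and -0.16 for Rmst. Trpc4 had 986 UMIs, or 94.9 CPM, in MIP nuclei and 1443 UMIs, or 104 CPM, in control nuclei.

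The working name of these nuclei, septal-like neurons, was checked against marker genes, and they did not come out as 1 cell type. By transmitter genes, 507 MIP nuclei, or 64.3% (interval 60.8% to 67.6%), had more UMIs of the GABA genes (Gad1, Gad2 and Slc32a1) than of the glutamate genes (Slc17a6, Slc17a7 and Slc17a8), and so had 628 control nuclei, or 71.9% (interval 68.7% to 74.8%). More UMIs of the glutamate transporter genes were in 209 MIP nuclei, or 26.5% (interval 23.4% to 29.7%), and in 189 control nuclei, or 21.6% (interval 18.9% to 24.5%). Neither was detected in 48 MIP nuclei, or 6.08%, and 26 control nuclei, or 2.97%, and 25 MIP and 31 control nuclei had equal counts. This split was made after the values were seen. Below, the first are called GABA nuclei and the second glutamate nuclei. Every nucleus of both classes had to hold rule genes, so their presence in both was set by the rule. Prlr stood at 73.1 CPM in MIP and 102 CPM in control GABA nuclei, and at 59.0 CPM in MIP and 88.8 CPM in control glutamate nuclei.

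**Figure D2:**
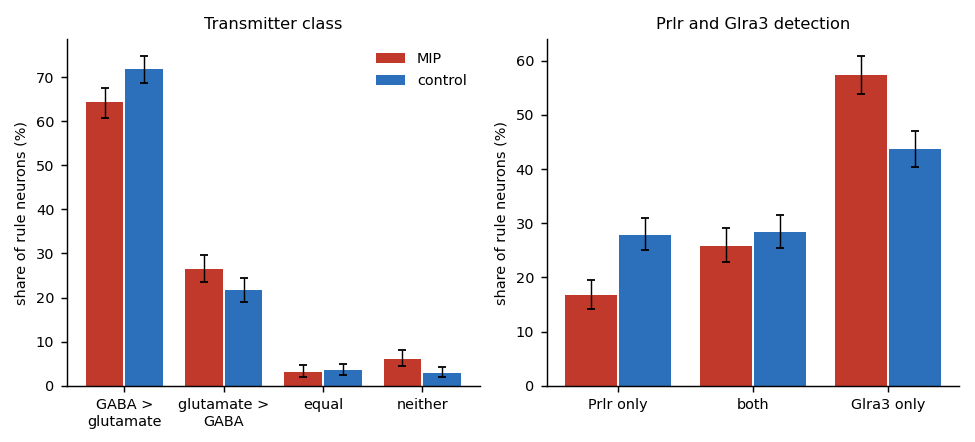
Shares of Prlr/Glra3 neurons by transmitter genes and by which receptor was detected, in percent of the neurons of each library, with exact 95% intervals that cover counting error only. The MIP library holds a larger share of glutamate nuclei (26.5% against 21.6%) and a smaller share of nuclei with Prlr alone (16.7% against 27.9%) than the control library.

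Which class had the higher MIP to control ratio of shares depended on the nuclei it was taken over, and the difference between the classes was not tested. Glutamate nuclei were 1.73% of all kept MIP nuclei and 1.12% of all kept control nuclei, a log2 ratio of 0.62 (interval 0.33 to 0.91). GABA nuclei were 4.19% of MIP and 3.73% of control nuclei, a log2 ratio of 0.17 (interval -0.0044 to 0.34). Neurons with Slc17a6, the vesicular glutamate transporter of subcortical neurons, that did not meet the rule and had more glutamate than GABA UMIs, at most 2 UMIs of Rarb and at most 1 of Slc17a7, are called other Slc17a6 neurons. They had 443 nuclei, or 3.66%, in MIP and 423 nuclei, or 2.51%, in control (log2 ratio 0.54). Among all kept glutamate nuclei the chosen ones were 15.2% in MIP and 14.5% in control, a log2 ratio of 0.07 (interval -0.22 to 0.36). Among all kept GABA nuclei the chosen ones were 6.35% in MIP and 5.25% in control, a log2 ratio of 0.27 (interval 0.10 to 0.45). A larger share of nuclei can come from more of these neurons or from a dissection that took in more of their tissue. The share also changes with the number of shallow nuclei counted beside these neurons. These cannot be told apart with 1 library per group.

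Against the other inhibitory neurons of the same library (4634 MIP and 6206 control nuclei with Rarb, Tshz1, or Lhx6 with Nxph1), some lateral septum genes were higher in the Prlr/Glra3 neurons and others lower. Most of these other inhibitory neurons, 3722 in MIP and 4787 in control, were chosen by Rarb, the marker of striatal projection neurons. Comparisons with them, here and below, are therefore mainly with neurons that the limit on Rarb kept out of the rule. Throughout, a gene counts as different when its levels differ at least 1.5-fold, here in both libraries. Of 19 lateral septum genes described, 9 were higher and 3 lower, where 7.94% of all 16401 genes were higher and 8.66% lower. Higher were the zinc finger factor gene Zic1, with 13.7 CPM in MIP Prlr/Glra3 neurons against 4.81 CPM in the other MIP inhibitory neurons, and 16.9 CPM against 6.73 CPM in control. Ndst4, an enzyme of heparan sulfate synthesis, stood at 210 CPM against 60.2 CPM in MIP and at 243 CPM against 48.3 CPM in control. Lower were Meis2, a homeobox gene of striatal and septal precursors, with 627 CPM against 1903 CPM in MIP and 623 CPM against 1977 CPM in control, the dopamine receptor gene Drd3, and Pou3f3.

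Against all other kept nuclei, where 5.15% of 18106 genes were higher and 14.8% lower, 5 of the 19 lateral septum genes were higher and 2 lower.

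The peptide genes known from the lateral septum did not set these nuclei apart. Sst, encoding somatostatin, had 65.6 CPM in MIP Prlr/Glra3 neurons against 72.9 CPM in the other MIP inhibitory neurons, and 75.8 CPM against 80.8 CPM in control. A UMI of Sst was in 43.3% of MIP and 53.3% of control Prlr/Glra3 neurons and in 40.0% of MIP and 52.8% of control microglia, which do not make it. The microglia were shallower, so the share of Sst in the neurons is read as background.

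Genes of the medial septum and diagonal band, the ventral neighbour of the lateral septum, were higher than in the other inhibitory neurons in 6 of 7 described. The seventh, Isl1, was lower. Over all genes 7.94% were higher and 8.66% lower. Against all other kept nuclei 4 of 10 were higher and 0 lower, where 5.15% of all genes were higher and 14.8% lower. The median log2 ratio of the list there was 1.18 in MIP and 0.37 in control. Lhx8, a LIM homeobox gene needed for forebrain cholinergic neurons, had 28.8 CPM in MIP Prlr/Glra3 neurons against 6.68 CPM in the other MIP inhibitory neurons, and 28.2 CPM against 7.05 CPM in control. It was detected in 91 MIP and 137 control Prlr/Glra3 neurons, or 11.5% and 15.7%, and in 1.08% of MIP and 1.87% of control microglia. After thinning, Lhx8 was in 3.42% of MIP and 3.10% of control Prlr/Glra3 neurons. Among the other inhibitory neurons, those chosen by Lhx6 with Nxph1 had it in 6.45% in MIP and 7.26% in control. The neurons with Lhx8 shared other factors of the same region. Lhx6 was found in 48.4% of MIP neurons with Lhx8 and in 11.03% of those without, and in 65.0% and 12.9% in control. Gbx1, a homeobox gene of the same region, was found in 25.3% of MIP neurons with Lhx8 against 1.43% without, and in 36.5% against 2.04% in control. Chat, the enzyme that makes acetylcholine, was found in 13.2% of MIP neurons with Lhx8 against 0.716% without, and in 3.65% against 1.49% in control. Prlr showed no such split in both libraries: it was detected in 50.5% of MIP neurons with Lhx8 and 41.5% without, and in 54.0% and 56.7% in control. Depth was not matched between nuclei with and without Lhx8, so these shares of joint detection are a description only.

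Markers of other regions were present too. Of 10 hypothalamic and preoptic genes 5 were higher and 0 lower than in the other inhibitory neurons, of 10 genes of cortical excitatory neurons 7 were higher, and of 11 interneuron genes 5 were higher, beside 7.94% of all genes. Against all other kept nuclei 1 of 10 cortical excitatory genes was higher and 1 lower, and 2 of 12 interneuron genes were higher and 2 lower. In GABA nuclei alone against the other inhibitory neurons 1 of 9 cortical excitatory genes was higher, and in glutamate nuclei against other Slc17a6 neurons 0 of 9. Of all genes 7.33% were higher and 8.53% lower in the first of these comparisons. In the second only 0.791% were higher and 2.27% lower. Of the hypothalamic and preoptic genes 3 of 9 were higher and 1 lower in the GABA nuclei so compared. In the glutamate nuclei 0 of 6 were higher and 1 lower. Against all other kept nuclei 5 of 13 hypothalamic and preoptic genes were higher and 0 lower, beside 5.15% of all genes higher. All 16 of the genes of striatal projection neurons were lower, which the limit on Rarb had selected for. The GABA list had 0 of 9 higher and 3 lower, and 0 lower once the GABA nuclei alone were taken. Among glial lists 5 of 10 astroglial and 7 of 12 oligodendrocyte lineage genes were lower. The nuclei are therefore called by their rule genes and given no cell type name here.

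Some receptors for steroid and peptide hormones, beside the prolactin receptor that the rule used, were higher than in the other inhibitory neurons. Of 27 such genes 9 were higher and 2 lower, where 7.94% of all genes were higher and 8.66% lower. Glutamate nuclei set against other Slc17a6 neurons had 0 of 18 higher and 0 lower. In that comparison only 0.791% of all genes were higher and 2.27% lower. Esr1, encoding estrogen receptor alpha, had 30.2 CPM in MIP Prlr/Glra3 neurons against 10.2 CPM in the other MIP inhibitory neurons, and 35.2 CPM against 10.2 CPM in control. Esr2, encoding estrogen receptor beta, had 6.83 CPM against 1.28 CPM in MIP and 12.3 CPM against 1.15 CPM in control. With each nucleus thinned to 2000 UMIs, Esr1 was detected in 3.93% of MIP and 5.16% of control Prlr/Glra3 neurons, against 3.79% of MIP and 3.69% of control microglia and 1.498% of MIP and 1.61% of control other inhibitory neurons. The intervals of the Prlr/Glra3 neurons and the microglia overlapped in both libraries, so at this depth these shares were not told apart. The interval of the Prlr/Glra3 neurons lay above that of the other inhibitory neurons. These were 2.68% to 5.53% against 1.17% to 1.89% in MIP, and 3.79% to 6.84% against 1.31% to 1.95% in control. Thinning matches depth and not the part of background RNA in a nucleus, which was not measured. Before thinning the shares with Esr1 were 17.2% in MIP and 21.9% in control Prlr/Glra3 neurons. They were 6.48% in MIP and 11.2% in control microglia, which are shallower. Nuclei with both Prlr and Glra3 held the most Esr1, with 46.3 CPM in MIP and 53.5 CPM in control. In nuclei with Prlr alone it had 28.5 CPM in MIP and 43.7 CPM in control, and with Glra3 alone 22.7 CPM in MIP and 18.1 CPM in control.

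Some relatives of the other rule genes were higher as well, to be read against the 7.94% of all genes that were higher. Of the other TRPC genes, 3 of 8 described were higher than in the other inhibitory neurons, among them Trpc5, the closest relative of Trpc4, with 179 CPM against 101 CPM in MIP and 175 CPM against 84.6 CPM in control. Of the glycine receptor and transport genes 2 of 6 were higher, but 0 of 6 in GABA nuclei alone, and 0 of 5 in glutamate nuclei against other Slc17a6 neurons. In the last 2 comparisons 7.33% and 0.791% of all genes were higher. Glra2, the alpha subunit gene of immature neurons, had 176 CPM against 109 CPM in MIP and 154 CPM against 103 CPM in control. Glrb, the beta subunit gene, had 88.4 CPM against 81.9 CPM in MIP and 114 CPM against 91.3 CPM in control, which is short of the ratio of 1.5. Of the genes of dense-core vesicle release 2 of 14 were higher, among them Cadps2, a priming factor, with 239 CPM against 88.9 CPM in MIP and 213 CPM against 71.9 CPM in control. The kainate receptor gene Grik1 was higher as well, with 684 CPM against 292 CPM in MIP and 803 CPM against 268 CPM in control.

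Ranked over all genes, several transcription factor and receptor genes were among those with the highest ratios to the other inhibitory neurons. Lhx9, a LIM homeobox gene of diencephalic and amygdalar excitatory neurons, had 9.04 CPM against 1.06 CPM in MIP and 6.91 CPM against 0.944 CPM in control. Npsr1, the neuropeptide S receptor gene, had 41.1 CPM against 7.87 CPM in MIP and 36.5 CPM against 7.21 CPM in control. Nr2f2, a nuclear receptor gene of caudal and ventral forebrain, had 67.0 CPM against 14.7 CPM in MIP and 63.8 CPM against 15.1 CPM in control. Ebf2, a helix-loop-helix factor gene, had 30.5 CPM against 1.14 CPM in MIP and 11.2 CPM against 2.59 CPM in control, from only 35 MIP and 34 control nuclei. Among the lowest were the lncRNA gene 1700003D09Rik, with 2.41 CPM against 64.1 CPM in MIP and 1.94 CPM against 57.3 CPM in control, and Inf2, an actin-severing formin gene, with 4.81 CPM against 67.0 CPM in MIP and 5.97 CPM against 80.1 CPM in control. Both libraries gave the same direction for each of these genes.

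Lhx8 was also higher in the GABA nuclei taken alone. Against the other inhibitory neurons 7.33% of 16234 genes were higher in them and 8.53% lower. Lhx8 stood at 44.3 CPM against 6.68 CPM in MIP and at 38.7 CPM against 7.05 CPM in control. Htr7, a serotonin receptor gene, stood at 41.3 CPM against 9.52 CPM in MIP and at 62.5 CPM against 14.4 CPM in control. Ano1, a calcium-activated chloride channel gene, stood at 29.7 CPM against 4.12 CPM in MIP and at 25.5 CPM against 5.99 CPM in control. Interneuron genes were higher than in the other inhibitory neurons in 6 of 11. In a different comparison, with the glutamate nuclei, Sox6 stood at 350 CPM in MIP and 406 CPM in control GABA nuclei. The glutamate nuclei had 74.7 CPM in MIP and 64.2 CPM in control.

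The glutamate nuclei differed less from other Slc17a6 neurons. Only 0.791% of 10614 genes were higher in them in both libraries and 2.27% lower. Adarb2, an RNA-editing family gene used as an interneuron marker in cortex, had 742 CPM against 330 CPM in MIP and 882 CPM against 407 CPM in control. Lhx9 had 23.1 CPM against 6.10 CPM in MIP and 19.9 CPM against 7.75 CPM in control. Avp, encoding vasopressin, was lower, with 3.02 CPM against 28.1 CPM in MIP and 15.5 CPM against 69.3 CPM in control. In the other Slc17a6 neurons 1 nucleus held 31.9% of the MIP and 37.4% of the control Avp count. By nuclei with a UMI, Avp was in 3.83% against 5.42% in MIP and in 21.2% against 16.5% in control, beside 3.24% of MIP and 14.3% of control microglia. Tfap2d, encoding a transcription factor of amygdalar and midbrain neurons, was lower as well, with 26.5 CPM against 88.9 CPM in MIP and 10.7 CPM against 51.4 CPM in control.

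Between GABA and glutamate nuclei, 1.87% of 11245 genes were higher in the GABA nuclei and 1.61% lower, beside the transmitter genes that made the split. Lhx6 had 31.6 CPM in GABA and 0 in glutamate nuclei of the MIP library, and 38.3 CPM and 1.26 CPM in the control library. Cacna2d1, an auxiliary calcium channel subunit gene, had 214 CPM in GABA and 1051 CPM in glutamate nuclei of the MIP library, and 200.2 CPM and 1097 CPM in the control library. Bdnf, a neurotrophin gene, had 4.75 CPM in GABA and 25.5 CPM in glutamate nuclei of the MIP library, and 6.11 CPM and 34.8 CPM in the control library. Tbr1, a T-box gene of excitatory neurons, had 4.45 CPM and 20.8 CPM in the MIP library, and 6.21 CPM and 23.4 CPM in the control library. In each case the libraries put the same class higher.

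**Figure D3:**
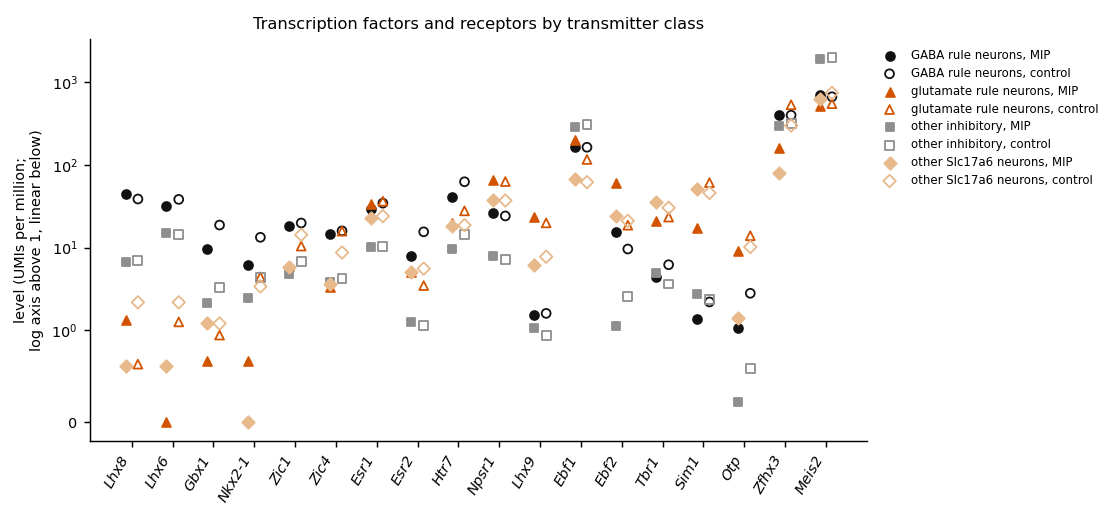
Levels of transcription factor and receptor genes, in CPM on an axis that is logarithmic above 1 and linear below, in GABA and glutamate Prlr/Glra3 neurons and in other neurons of the MIP and the control library (sums over nuclei, 1 library per group). Lhx8 stands at 44.3 CPM in MIP and 38.7 CPM in control GABA nuclei and at 1.34 CPM in MIP and 0.632 CPM in control glutamate nuclei, where Lhx9 stands at 23.1 CPM in MIP and 19.9 CPM in control.

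Between the libraries, many more genes were lower than higher in the MIP Prlr/Glra3 neurons. Of 14287 genes with at least 50 UMIs over both libraries, 270, or 1.89%, were higher and 2465, or 17.3%, were lower. Of all genes past the ratio of 1.5, then, 9.87% were higher and 90.1% lower. The median log2 ratio over these genes was -0.17, and when ratios were taken relative to it 720 genes were higher and 1425 lower, or 33.6% and 66.4%. The other kept nuclei showed the same tilt, with 2.45% of 20629 genes higher, 18.4% lower and a median of -0.19, and so did the other inhibitory neurons, with 1.78% of 18948 genes higher and 16.9% lower. Mitochondrial UMIs moved with it, at a median of 0.268% per MIP and 0.440% per control Prlr/Glra3 neuron. Transcripts of nonneuronal marker genes did as well: 3 or more such UMIs were in 518 MIP neurons, or 65.7%, and in 727 control neurons, or 83.2%. Depth was not matched for that count, and the medians were 4 such UMIs per MIP and 5 per control neuron. Their part in the lower values was not tested.

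Genes of the circadian clock were the clearest group to be higher in MIP. The clock runs as a feedback loop in which Clock and Arntl (Bmal1) activate the Per and Cry genes through E-boxes, and the Per and Cry proteins repress that activation. Of 20 clock genes described 6 were higher and 0 lower, where 1.89% of all genes were higher and 17.3% lower. The median log2 ratio of the clock genes was 0.31, beside -0.17 over all genes. Cry1 (mm10 chr10:85131700-85185064, minus strand), a core repressor, had 623 UMIs, or 59.9 CPM, in MIP neurons and 286 UMIs, or 20.6 CPM, in control neurons. It was detected in 47.9% of MIP and 24.7% of control neurons, and its log2 ratio was 1.54 (interval 1.34 to 1.75). Per2 (chr1:91415982-91459324, minus strand), another repressor, had 223 UMIs, or 21.5 CPM, in MIP neurons and 116 UMIs, or 8.35 CPM, in control neurons, a log2 ratio of 1.36 (interval 1.03 to 1.70). The other 4 were repressors as well.

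Ciart, which represses Clock and Arntl directly, had 65 UMIs in MIP and 34 in control neurons (log2 ratio 1.35, interval from 0.73 up to 1.997). Cry2 had 880 UMIs in MIP and 602 in control neurons (log2 ratio 0.97, interval 0.82 to 1.12). Per1 had 118 UMIs in MIP and 85 in control neurons (log2 ratio 0.89, interval 0.48 to 1.31). Nr1d1, encoding the repressor of Arntl known as REV-ERB alpha, had 37 UMIs in MIP and 29 in control neurons, and its interval of 0.03 to 1.52 nearly reaches a ratio of 1. The activators stayed within the ratio of 1.5, with log2 ratios of 0.19 for Arntl and 0.16 for Clock, and so did Per3 at -0.04 and the output gene Dbp at -0.07.

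The same 6 genes were higher in the other kept nuclei, so their difference is not particular to these neurons. There the log2 ratios were 1.13 for Cry1, 1.29 for Per2, 1.02 for Ciart, 0.90 for Cry2, 0.84 for Per1 and 0.72 for Nr1d1. Taken relative to the median of all genes, or scaled by the trimmed mean of M values, 8 of the 20 were higher and 0 lower. With neurons thinned to 2000 UMIs, 12 could be described and 2 were higher. The time of day at dissection is not stated for either group. Within each library 7 of 20 clock genes were lower in the Prlr/Glra3 neurons than in the other inhibitory neurons and 0 higher, where 8.66% of all genes were lower and 7.94% higher.

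**Figure D4:**
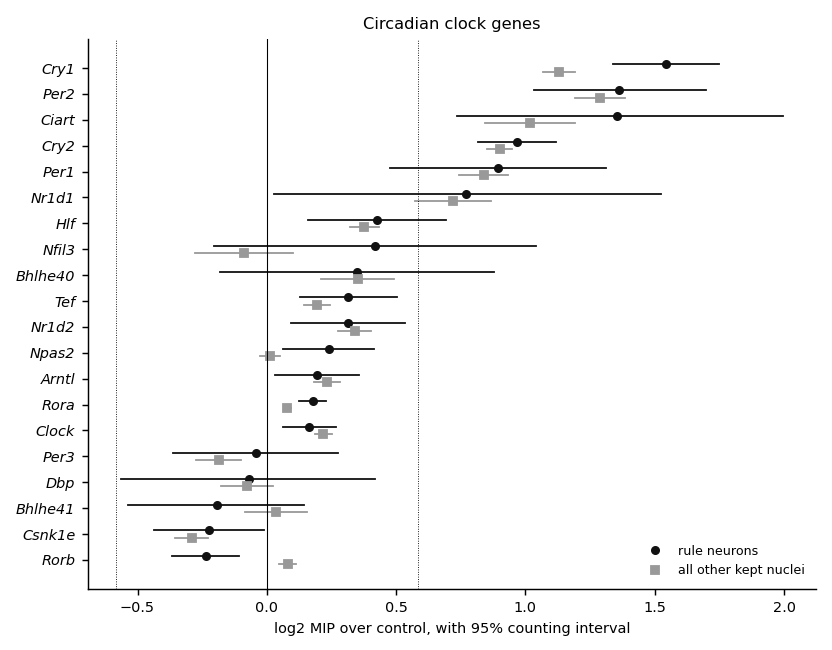
Log2 ratio of MIP to control for each of the 20 clock genes in Prlr/Glra3 neurons and in the other kept nuclei, with exact 95% intervals of the counts (counting error only, 1 library per group). Cry1, Per2 and Ciart lie above 1 in both, and 0 of the 20 genes lie below the ratio of 1 over 1.5 in the Prlr/Glra3 neurons.

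Since clock genes are known to be driven through the E-box CACGTG, a palindrome that reads the same on both strands, the 250 bases before the start sites of the 6 genes were searched for it in RefSeq sequence of the build GRCm38.p6. There were 6 such windows for 5 of the genes. A match was found in 3 windows, 1 each of Ciart, Cry1 and Per1. Over all 32851 windows of the same length, 1978, or 6.02%, held a match, and in the clock list as a whole 6 of 27 windows did, or 22.2%. A match describes letters in a window and does not show a site in use. The 3 windows with a match are shown because these genes were among those higher in MIP; they run 5′ to 3′ on the strand of the gene, end at the base before the start site, and have the E-box in capitals. The Ciart window is chr3:95882229-95882478 on the minus strand, the Cry1 window chr10:85185055-85185304 on the minus strand, and the Per1 window chr11:69098699-69098948 on the plus strand.
Ciart: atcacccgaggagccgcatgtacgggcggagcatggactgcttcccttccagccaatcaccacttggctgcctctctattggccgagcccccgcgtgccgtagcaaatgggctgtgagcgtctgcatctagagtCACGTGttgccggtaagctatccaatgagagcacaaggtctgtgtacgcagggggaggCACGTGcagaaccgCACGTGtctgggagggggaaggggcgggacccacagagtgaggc
Cry1: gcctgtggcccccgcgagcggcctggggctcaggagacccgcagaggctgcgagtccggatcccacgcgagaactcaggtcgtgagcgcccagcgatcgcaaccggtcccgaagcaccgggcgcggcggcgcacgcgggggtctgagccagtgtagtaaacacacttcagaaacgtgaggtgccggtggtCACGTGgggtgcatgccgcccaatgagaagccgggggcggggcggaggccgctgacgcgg
Per1: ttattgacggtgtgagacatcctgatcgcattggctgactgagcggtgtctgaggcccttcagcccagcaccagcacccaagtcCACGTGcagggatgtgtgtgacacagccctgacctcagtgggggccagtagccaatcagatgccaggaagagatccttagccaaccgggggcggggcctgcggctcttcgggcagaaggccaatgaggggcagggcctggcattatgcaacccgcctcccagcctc
The matches begin 116, 58 and 44 bases before the start of Ciart, 60 bases before that of Cry1 and 166 bases before this start of Per1.

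Outside the clock, single genes led the ranking of those higher in MIP. Ebf2 had 317 UMIs in MIP and 156 in control neurons (log2 ratio 1.44), carried by 35 MIP and 34 control nuclei. It was at 0.69 in the other kept nuclei. In glutamate nuclei it had 59.7 CPM in MIP and 18.7 CPM in control, and in GABA nuclei 15.6 CPM in MIP and 9.62 CPM in control. Igf2bp2, an RNA-binding protein gene of developing tissue, had 155 UMIs in 112 MIP nuclei and 77 UMIs in 61 control nuclei (log2 ratio 1.43). Tafa1, encoding a secreted chemokine-like protein, had 11661 UMIs in MIP and 8120 in control neurons (log2 ratio 0.94, interval 0.90 to 0.98) and was at 1.39 in the other kept nuclei. Pdzrn3, a ubiquitin ligase gene, had 452 UMIs in MIP and 284 in control neurons (log2 ratio 1.09).

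Ebf1, a gene of the same family as Ebf2, was found in 51.4% of MIP neurons with Ebf2 and 10.2% of those without, and in 38.2% and 16.8% in control; depth was not matched.

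Of the 12 genes ranked highest, 2 rested on 1 nucleus each. Ttf2 had 68 UMIs in MIP and 15 in control neurons, but 80.9% of the MIP count came from 1 nucleus. Without the top nucleus of each library it had 13 UMIs in each and a log2 ratio of 0.42. Gm31045 had 92 UMIs in MIP and 25 in control neurons, 88.0% of the MIP count from 1 nucleus, and without the top nuclei its log2 ratio was -0.64. Chat had 71 UMIs in 17 MIP nuclei and 35 UMIs in 16 control nuclei, and in the other kept nuclei its log2 ratio was -0.52. It did not rest on 1 nucleus, with a log2 ratio of 1.45 without the top ones, but the Chat ratio was -0.03 with neurons thinned to 2000 UMIs and -2.50 in glutamate nuclei alone. Greb1, an estrogen-regulated gene, had 75 UMIs in MIP and 38 in control neurons (log2 ratio 1.40), and was at -0.18 in the other kept nuclei; the libraries differ in sex.

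The genes ranked lowest in MIP included peptides of the hypothalamus. Pmch, encoding melanin-concentrating hormone, had 0 UMIs in MIP and 158 UMIs in control neurons, at least 31.7-fold lower in MIP by the exact interval of the counts. Without the top control nucleus the upper end of that interval is a log2 ratio of -4.40. Its control count was spread over 54 nuclei, or 6.18%, with 32.9% of it in 1 nucleus. It stood at 11.4 CPM in these neurons, against 8.08 CPM in control microglia, where it was in 4.91% of nuclei. Oxt, encoding oxytocin, had 3 UMIs in MIP and 116 in control neurons, 62.9% of the control count from 1 nucleus. It was in 4.12% of control neurons and in 5.14% of control microglia. Pmch was low across the MIP library, with a log2 ratio of -6.81 in the other kept nuclei. The shares of Pmch and Oxt in control neurons are near or below those of microglia, which do not make these peptides. The UMIs scattered over nuclei are therefore read as background and not as expression in these neurons. Single control nuclei with 52 UMIs of Pmch and 73 UMIs of Oxt are not covered by that reading. In control microglia no nucleus held more than 8.33% of the 24 UMIs of either gene. What the single nuclei are was not tested.

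Gal, encoding galanin, had 9 UMIs in MIP and 65 in control neurons (log2 ratio -2.43, interval -3.63 to -1.42) and was in 5.49% of control neurons against 2.10% of control microglia. Of the 12 hypothalamic and preoptic genes described 6 were lower in MIP and 0 higher, with a median log2 ratio of -0.67, and relative to the median of all genes 6 were still lower. Over all genes 17.3% were lower. Pmch and Oxt, whose shares of nuclei are read above as background, are among the 6. Without neurons holding 3 or more nonneuronal UMIs the median of the list turned to 0.32. Sim1, a factor gene of hypothalamic neurons, had 74 UMIs in 19 MIP nuclei and 243 UMIs in 43 control nuclei (log2 ratio -1.30). Esr2 had 71 UMIs in MIP and 171 in control neurons (log2 ratio -0.85), and Cyp19a1, the aromatase gene that makes estradiol, had 28 UMIs in MIP and 140 in control neurons (log2 ratio -1.90). Of 7 sex-dimorphic genes that are not sex-linked, 3 were lower and 1 higher, and sex differs between the libraries. A different mix of hypothalamic tissue in the dissections, or of background RNA, cannot be told apart from lower expression.

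The medial septum list had a median log2 ratio of -0.21, close to the -0.17 of all genes, and its members went both ways. Gbx1 had 65 UMIs in MIP and 190 in control neurons (log2 ratio -1.13, interval -1.56 to -0.72), and Nkx2-1, a factor gene of ventral forebrain, had 47 UMIs in MIP and 154 in control neurons (log2 ratio -1.29, interval -1.80 to -0.81). Slc17a8 had 44 UMIs in MIP and 128 in control neurons (log2 ratio -1.12). These 3 of 7 described were lower and 1, Chat, was higher, where 17.3% of all genes were lower and 1.89% higher. Relative to the median of all genes 3 were lower and 2 higher. Lhx8 itself had 28.8 CPM in MIP and 28.2 CPM in control neurons (log2 ratio 0.03, interval -0.19 to 0.25).

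**Figure D5:**
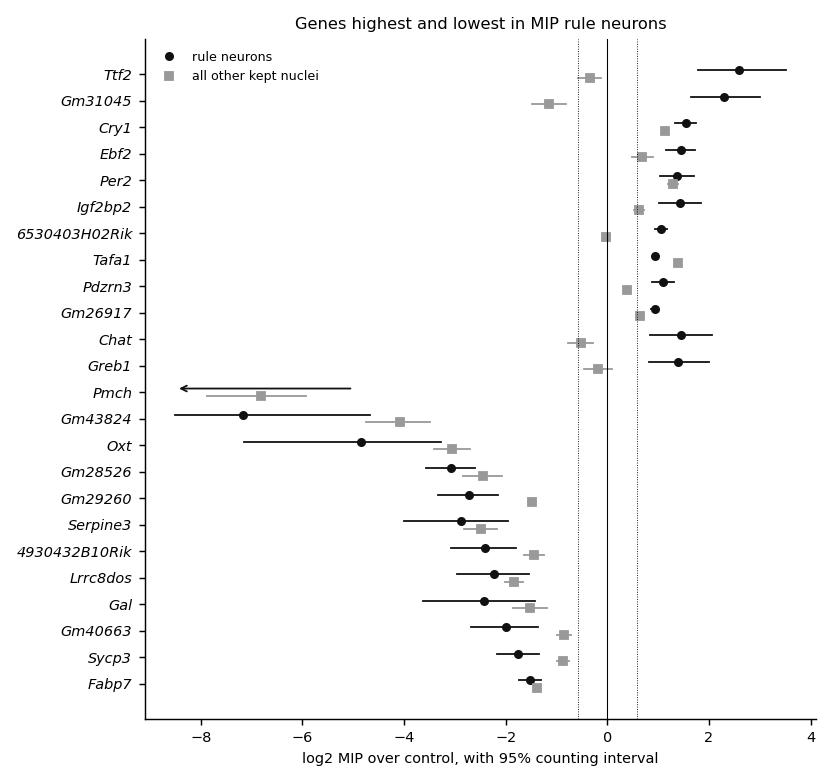
Log2 ratio of MIP to control in Prlr/Glra3 neurons for the 12 genes ranked highest and the 12 ranked lowest, with exact 95% intervals (counting error only) and the ratio in the other kept nuclei beside it. Pmch, with 0 UMIs in MIP, is drawn as an arrow from its upper bound, and intervals that pass the left edge are cut there. Cry1 and Per2 lie well above 0 in both, while Ttf2 and Gm31045 rest on 1 nucleus each.

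Several of the lowest genes were low in few nuclei and have no stated function. Gm43824 had 1 UMI in MIP and 192 UMIs in control neurons, from 14 control nuclei. Gm28526 had 40 UMIs in 12 MIP nuclei and 450 UMIs in 44 control nuclei (log2 ratio -3.07). Others were spread widely: Sycp3, encoding a meiotic chromosome protein, had 61 UMIs in MIP and 275 in control neurons (log2 ratio -1.75), and Fabp7, a fatty acid binding protein gene of radial glia, had 22.7 CPM in MIP and 65.3 CPM in control neurons (log2 ratio -1.52). Fabp7 was at -1.38 in the other kept nuclei. Serpine3 had 10 UMIs in MIP and 99 in control neurons, and was at -2.50 in the other kept nuclei.

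Transcripts of the oligodendrocyte lineage were lower in the MIP neurons as well. Of 10 oligodendrocyte lineage genes described 7 were lower and 0 higher (median log2 ratio -1.26), and 7 were lower relative to the median of all genes. With neurons thinned to 2000 UMIs the median of the list turned to 0.27. Sox10, a defining factor gene of that lineage, had 23 UMIs in MIP and 111 in control neurons, and Gpr17, a marker of newly formed oligodendrocytes, had 6 UMIs in MIP and 52 in control neurons. The list summed to 742 UMIs in MIP and 1591 UMIs in control neurons. In the other kept nuclei the log2 ratio was -0.23 for Sox10 and -1.40 for Gpr17. Other glial lists stayed nearer to the 17.3% of all genes that were lower: of 10 astroglial genes 2 were lower, among them Gfap, and of 9 microglial genes 1 was. Relative to the median of all genes 1 astroglial gene was higher and 2 lower, and 2 microglial genes were higher and 1 lower.

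Nuclear genes of oxidative phosphorylation, the subunits of the respiratory chain, were lower in 9 of 21 and higher in 0, with a median log2 ratio of -0.51. Over all genes 17.3% were lower and 1.89% higher, with a median of -0.17. Relative to the median of all genes 7 were lower and 1 higher. Cycs, encoding cytochrome c, had 142 UMIs in MIP and 378 in control neurons (log2 ratio -0.99), and Cox8a, a subunit of cytochrome c oxidase, had 529 UMIs in MIP and 1284 in control neurons (log2 ratio -0.86). Both were lower in the other kept nuclei too, at -1.15 and -0.89. Hypoxia genes were lower in 5 of 12, and in 0 of 12 relative to the median of all genes.

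Genes set by glucocorticoids, the stress steroids, did not move as 1 group. Of 18 described 2 were higher and 4 lower, and relative to the median of all genes 4 were higher and 2 lower. Each list in this paragraph is to be read beside all 14287 genes, of which 1.89% were higher and 17.3% lower. Relative to their median 720 of those genes were higher and 1425 lower. Fkbp5, a chaperone of the glucocorticoid receptor and its target, had 870 UMIs, or 83.7 CPM, in MIP neurons and 594 UMIs, or 42.7 CPM, in control neurons (log2 ratio 0.97, interval 0.82 to 1.12). Per1, also in the clock list, was the other higher gene. Ddit4, a repressor of mTOR signalling, had 49 UMIs in MIP and 107 in control neurons (log2 ratio -0.71). Of the immediate early genes, which report recent activity, 1 of 15 was higher, Nr4a2, and 1 lower, Jund. Their median log2 ratio was 0.27, beside -0.17 over all genes, and relative to that median 5 were higher and 0 lower. In the integrated stress response list 1 of 12 was higher and 4 lower, and relative to the median of all genes 2 were higher and 2 lower. The 1 higher without that scaling was Eif2ak3, the endoplasmic reticulum stress kinase PERK, with 352 UMIs in MIP and 227 in control neurons (log2 ratio 1.05, interval 0.81 to 1.30), at 0.64 in the other kept nuclei. Of the acute phase genes 2 of 10 were higher, among them Stat3, which carries cytokine signals, with 439 UMIs in MIP and 376 in control neurons (log2 ratio 0.64, interval 0.44 to 0.84), and 2 were lower. The NF-kB list had 1 of 9 higher, Rel, and 1 lower, and the interferon list 0 of 8 higher and 1 lower.

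Few of the signalling partners of the marker receptors were past the ratio of 1.5 between the libraries. In the prolactin pathway list, which includes Prlr, 0 of 11 genes were past it in either direction. Prlr itself, at a log2 ratio of -0.58, was just short of it. Over all genes 1.89% were higher and 17.3% lower. Jak2 had 57.2 CPM in MIP and 49.0 CPM in control neurons (log2 ratio 0.22), Stat5b 67.1 CPM and 75.8 CPM (log2 ratio -0.18), and Socs2, a feedback inhibitor induced by Stat5, 28.1 CPM and 29.7 CPM (log2 ratio -0.08). Cish, another Stat5 target, had 2 UMIs in MIP and 6 in control neurons, too few to compare. Of 7 glycine receptor and transport genes 1 was lower, Glra1, the adult alpha subunit gene, with 59 UMIs in MIP and 143 in control neurons (log2 ratio -0.86, interval -1.32 to -0.41). Glra2 was at 0.19, Glrb at -0.36 and the scaffold gene Gphn at 0.20. Glra3, at 0.52, was short of the ratio as well. In the TRPC list 0 of 9 were past the ratio, with Trpc5 at 0.03.

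Genes of mature neuronal function differed little. Past the ratio of 1.5 were 0 of 14 GABA-A receptor genes, 0 of 21 glutamate receptor genes, 0 of 26 potassium channel genes, 0 of 18 calcium and sodium channel genes and 0 of 15 dense-core release genes. Relative to the median of all genes 1 potassium channel gene was higher and the other 4 counts stayed at 0. Without that scaling 1.89% of all genes were higher and 17.3% lower. In the GABA list 3 of 9 were lower, among them Slc32a1, the vesicular GABA transporter gene, with 473 UMIs in MIP and 1002 in control neurons (log2 ratio -0.66). Relative to the median of all genes 0 were lower, and within GABA nuclei alone Slc32a1 was at -0.49. Gad2 had 3065 UMIs in MIP and 3855 in control neurons (log2 ratio 0.09).

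Lower genes outnumbered higher ones within each transmitter class too. In GABA nuclei 1.74% of 13243 genes were higher in MIP and 15.2% lower, and in glutamate nuclei 3.65% of 10322 genes were higher and 16.5% lower. Some factor genes differed in the glutamate nuclei. Meis1, a homeobox gene, had 312 UMIs in MIP and 81 in control glutamate nuclei (log2 ratio 2.03), and Ror1, a Wnt receptor gene, had 61 UMIs in MIP and 9 in control (log2 ratio 2.85). Foxp2, a forkhead gene, had 144 UMIs in MIP and 576 in control glutamate nuclei (log2 ratio -1.92), and Zfhx3, a homeobox gene, stood at 162 CPM in MIP and 533 CPM in control (log2 ratio -1.72), while in GABA nuclei it stood at 395 CPM and 399 CPM (log2 ratio -0.01). In GABA nuclei Avp had 22 UMIs in MIP and 133 in control (log2 ratio -1.98), and was in 4.34% of MIP and 18.6% of control GABA nuclei against 3.24% of MIP and 14.3% of control microglia. The difference between the classes was not tested for any of these genes.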

How the data were processed

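Single nuclei of 1 MIP and 1 control library were analysed; the labels give the groups. The authors deposited raw counts of UMIs for 32285 genes in each barcode, from Cell Ranger 5.0.1 and the mouse build mm10 per the submitters' processing notes. How barcodes were called, and whether animals were pooled, is not given in the sources used here. Barcodes with under 500 genes (204 MIP, 0 control) or over 5% mitochondrial UMIs (48 MIP, 114 control) were left out. The rule that chose the neurons, the 39 gene lists and the other choices were made with earlier results of these data known; the transmitter split, the other Slc17a6 neurons and the checks on deep and top nuclei were chosen after seeing the values.

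Counts were summed over nuclei per library, and genes with at least 50 UMIs over both were described by the log2 ratio of their CPM with an exact interval from both Poisson counts; shares have exact Clopper-Pearson intervals. The scripts were tested on simulated counts. Genes were named by a fixed rule: the 12 highest and 12 lowest by the end of the interval that lies closest to no difference, leaving out genes under 60 UMIs in the higher library, the same ranking against other populations (20 higher and 10 lower against the other inhibitory neurons), the genes of the rule, and examples of each list. Examples beyond the extremes of a list were picked after their values were seen. Not ranked were genes of mitochondria, ribosomal proteins and haemoglobins, and those used to check sex. Other inhibitory neurons had a UMI of Gad1, Gad2 or Slc32a1 and at least 3 UMIs of Rarb, at least 2 of Tshz1, or Lhx6 with Nxph1. Microglia were nuclei with at least 5 UMIs of Csf1r, Inpp5d, C1qa, C1qb, C1qc and Dock8 together. Gene positions are from GENCODE M21 (mm10), and promoter sequence is from RefSeq. Python 3.11.15, NumPy 2.4.6, SciPy 1.17.1, pandas 2.3.3, matplotlib 3.10.9 and, for the trimmed mean of M values, R 4.3.3 with edgeR 4.0.16 were used.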

Additional observations from a re-analysis of the deposited data

Results flagged for a closer look

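Tfap2d, encoding a transcription factor known from amygdalar and midbrain neurons, moved in opposite directions in the 2 transmitter classes of the Prlr/Glra3 neurons. In GABA nuclei it had 23 UMIs in MIP and 77 in control, a log2 ratio of -1.13 (interval -1.87 to -0.44). In glutamate nuclei it had 79 UMIs in MIP and 34 in control, a log2 ratio of 1.30 (interval 0.70 to 1.93). With 1 library per group the difference between the classes was not tested.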

How the results depend on the processing

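The log2 ratio of the share of Prlr/Glra3 neurons, 0.33, moved to 0.58 with 3 of the 8 genes asked for and to 0.0482 with 5, and it reversed to -0.26 with 6. It was 0.12 among nuclei of at least 2000 UMIs and 0.12 with at least 1000 genes, and 1.12 without all nuclei holding 3 or more nonneuronal UMIs. The other 8 settings moved it by less than its interval. The cause was not tested, except that fewer nuclei remain under the stricter rules by construction. The count of higher genes, 270, was 720 relative to the median of all genes, 744 with trimmed mean of M values scaling, 481 with at least 20 UMIs, 145 with at least 200, 2261 with at least 1 and 446 without the neurons holding nonneuronal UMIs. The count of lower genes, 2465, was 1425, 1386 and 1357 under the first, second and last of these, 991 with neurons thinned to 2000 UMIs, 1154 with at least 200 UMIs and 7592 with at least 1. With trimmed mean of M values scaling 34.9% of the genes past the ratio were higher and 65.1% lower. Of the list medians 2 reversed: the oligodendrocyte lineage to 0.27 when thinned, and the hypothalamic and preoptic list to 0.32 without the neurons holding nonneuronal UMIs. Of the named genes the Chat ratio reversed to -0.0256 when thinned and -2.50 in glutamate nuclei alone, the Ttf2 ratio to -0.92 and the Greb1 ratio to -0.40 in glutamate nuclei, and the Gm31045 ratio to -1.72 in glutamate nuclei, -0.94 with Rarb, Slc17a7 and Tshz1 all at 0, -0.77 without neurons over 30000 UMIs and -0.64 without its top nucleus. The remaining named gene ratios kept their direction, 336 within their interval and 103 beyond it; 23 gave no ratio because a library had 0 UMIs, those of Pmch throughout among them. No paired analysis was possible because each group is 1 library, and for the same reason no replicate could be left out. Depth limits genes of few counts: a gene at 0 UMIs in MIP neurons may be present at up to 0.289 CPM.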
